A study of Mus musculus with 4 samples.

Results

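The Fc receptor genes are those for the cell-surface receptors that bind the constant (Fc) part of antibodies, for the signalling chain these receptors share, and for the neonatal Fc receptor. They were taken by gene symbol, as Fcgr1, Fcgr3, Fcgr4, Fcer1g, Fcgr2b and Fcgrt, and all 6 had a row among the 16655 genes with counts in every library used. Microglia, the macrophages that live in brain tissue, had been sorted by fluorescence from the cortex of C57BL/6 mouse embryos at embryonic day 14, and their RNA was sequenced. The Arid1a cKO group carried a conditional knockout of Arid1a, whose product binds DNA within the BAF complex, a remodeller of chromatin, and the control group carried the floxed allele (Arid1afl/fl). By its title, the study concerns how ARID1A bears on microglia homeostasis and how neural progenitor cells respond. Counts of 3 libraries were used, cKO replicate 2 and control replicates 5 and 6, and cKO replicate 1 was not analysed here. The labels name neither the Cre driver nor whether a sample was 1 embryo or a pool, so the p-values below measure only the spread between these libraries, which may be technical.

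Macrophages use Fc gamma receptors to take up particles coated with immunoglobulin G. The activating receptors signal through a short motif called ITAM, carried by the shared Fc receptor gamma chain, which is phosphorylated by Src-family kinases and then recruits the kinase Syk. The inhibitory receptor carries the opposing motif, ITIM, which recruits lipid phosphatases, so that the balance of both kinds sets the response to immune complexes. The neonatal Fc receptor acts inside the cell instead, where it binds immunoglobulin G and albumin in acidic endosomes and returns them from degradation.

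The counted reads came to 17262261 in the cKO library, 18608979 in control 5 and 13774075 in control 6. Levels are given as CPM, read counts divided by the library's total and put on 1 common scale, after TMM scaling, which corrects for differences in library composition. Arid1a itself stood at 68.9 CPM in the cKO library, 109 in control 5 and 130.4 in control 6, so that its log2 fold change was -0.80 (SE 0.41, edgeR adjusted p = 0.901, not past the threshold of 0.05). With 1 library against 2, no permutation test could give a p under 0.333. All 10 microglia markers were detected, with a summed level of 13338 CPM in the cKO library, 18438 in control 5 and 26351 in control 6. The cKO library was the lowest in 9 of these 10 markers, beside 31.1% of all genes tested. Of the markers edgeR called 1, Siglech, as lower, beside 0.0394% of all genes called in either direction. DESeq2 called 4, all as lower, beside 1.31% of the genes with an adjusted p. In bulk RNA, fewer cells of a type and less RNA per cell cannot be told apart.

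The Fc gamma receptor genes other than Fcgr1 lie beside Fcer1g in 276 kb of chromosome 1. On GRCm38, Fcgr2b is at chr1:170958617-170976547 on the minus strand, Fcgr4 at chr1:171018920-171029761 on the plus strand, Fcgr3 at chr1:171051174-171064935 on the minus strand and Fcer1g at chr1:171229572-171234365 on the minus strand. Fcgr1 is at chr3:96282909-96293969 and Fcgrt at chr7:45092990-45103851, both on the minus strand. Fcgr2b and Fcgr3 are close paralogs, and the longest stretch that their coding sequences share is shown because reads from it cannot be assigned to either gene by sequence. The 129 identical bases are in capitals, with 30 flanking bases on each side, at coding positions 278 to 406 of the Fcgr2b transcript and 263 to 391 of the Fcgr3 transcript in GENCODE M21.
Fcgr2b: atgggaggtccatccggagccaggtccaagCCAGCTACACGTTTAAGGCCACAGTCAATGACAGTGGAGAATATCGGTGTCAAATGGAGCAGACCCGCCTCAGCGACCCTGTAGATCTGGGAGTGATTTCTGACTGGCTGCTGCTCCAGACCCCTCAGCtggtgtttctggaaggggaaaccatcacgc
Fcgr3: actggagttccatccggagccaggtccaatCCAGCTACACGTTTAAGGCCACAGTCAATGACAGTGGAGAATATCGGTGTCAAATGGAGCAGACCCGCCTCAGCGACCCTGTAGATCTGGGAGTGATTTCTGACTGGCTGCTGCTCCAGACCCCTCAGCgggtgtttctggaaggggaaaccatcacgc
Of the distinct 50-base words in Fcgr3 transcripts, 166 of 1733 (9.58%) also occurred in Fcgr2b. In Fcgr2b, 395 of 5685 words (6.95%) occurred in another gene, 166 of them in Fcgr3. Fcgr1, Fcgr4, Fcer1g and Fcgrt shared none. The Fcgr2b and Fcgr3 values are therefore uncertain to the extent that such reads were divided, dropped or given to either gene, a setting not given in the sources used here.

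No Fc receptor gene passed the edgeR test, against 0.0394% of all 15236 genes tested (6 genes). The largest difference was in Fcgrt, which stood at 44.5% of the control mean in the cKO library, and it was the only member at an unadjusted p under 0.05 (6.00% of all genes) and the only one called by the DESeq2 Wald test. The cKO library was above both controls in Fcgr4, Fcgr2b and Fcer1g (38.0% of all genes) and below both in Fcgr1, Fcgr3 and Fcgrt (31.1% of all genes). The median log2 fold change of the 6 members was -0.04, beside 0.05 over all genes tested.

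**Figure D1:**
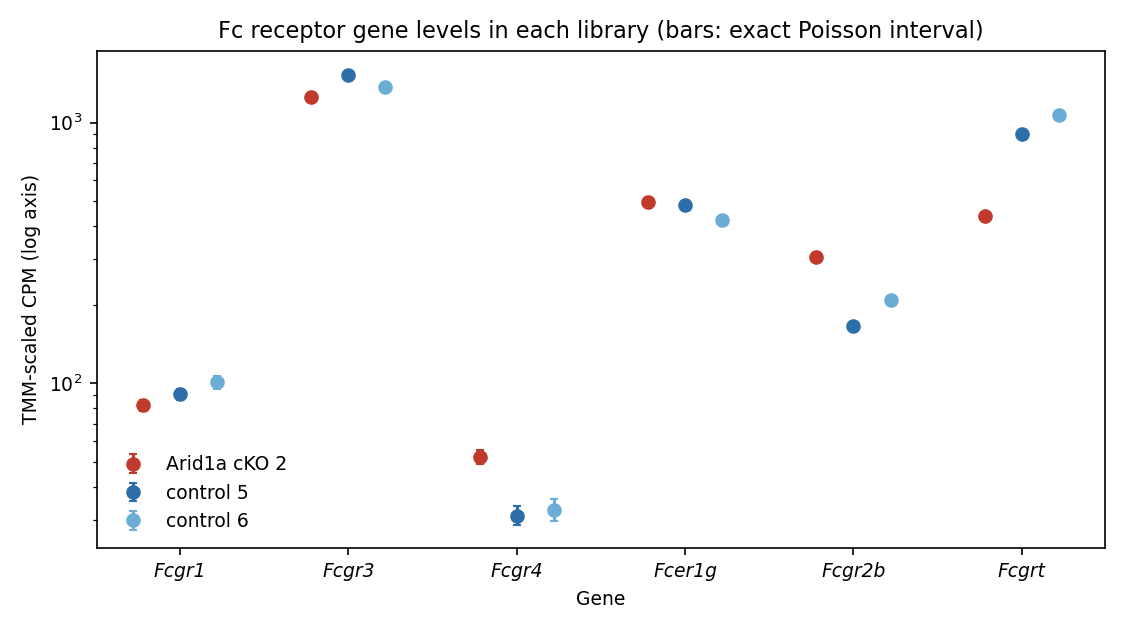
TMM-scaled CPM (log axis) of the 6 Fc receptor genes in the Arid1a cKO library, control 5 and control 6, with exact Poisson intervals for counting error as bars, most of them smaller than the points. The cKO library lies above both controls in Fcgr4 (52.2 CPM), Fcer1g (496 CPM) and Fcgr2b (304 CPM) and below both in Fcgr1, Fcgr3 and Fcgrt (437 CPM).

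Among the activating receptors, Fcgr3 had by far the most reads and Fcgr4 had the largest log2 fold change. Fcgr1, the high-affinity receptor for immunoglobulin G, had 1504 reads and 82.3 CPM in the cKO library (95% interval 78.2 to 86.6), against 90.8 CPM in control 5 and 100.7 in control 6. The cKO value lay under both controls, by about the distance that separated them. The log2 fold change was -0.22 (SE 0.39, edgeR unadjusted p = 0.597, adjusted p = 1.00).

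Fcgr3, a low-affinity activating receptor, had 22859 reads and 1251 CPM in the cKO library (95% interval 1235 to 1268). Control 5 had 1526 CPM and control 6 had 1366. Again the cKO library was the lowest, nearer to control 6 than the controls were to each other. Its log2 fold change was -0.21 (SE 0.32, edgeR unadjusted p = 0.530, adjusted p = 1.00).

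Fcgr4, the mouse receptor of intermediate affinity, had 953 reads and 52.2 CPM in the cKO library (95% interval 48.9 to 55.6), against 31.1 CPM in control 5 and 32.7 in control 6. The controls were close together, and the cKO value was 1.64 times their mean of 31.9 ± 1.15 CPM (SD, n = 2). On the log2 scale the cKO library was 9.20 times farther from the nearer control than the controls were from each other. The 95% intervals of the controls overlapped, at 28.5 to 33.7 CPM in control 5 and 29.7 to 35.9 in control 6. This ratio therefore rests on a gap between the controls that lay within counting error. The log2 fold change of 0.71 (SE 0.45) did not pass the edgeR test (unadjusted p = 0.155, adjusted p = 0.959), in which genes share an estimate of the spread.

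Fcer1g, the shared gamma chain, which the 3 activating receptors need for surface expression and signalling, had 9060 reads and 496 CPM in the cKO library. Control 5 had 484 CPM and control 6 had 424. The cKO value lay just above control 5, a smaller step than that between the controls, with a log2 fold change of 0.13 (SE 0.34, edgeR unadjusted p = 0.716, adjusted p = 1.00). Relative to the summed reads of Fcgr1, Fcgr3 and Fcgr4, Fcer1g stood at 0.358 in the cKO library (95% interval 0.349 to 0.367), against 0.294 (0.287 to 0.301) in control 5 and 0.283 (0.274 to 0.291) in control 6. This ratio does not depend on library scaling. Its log2 value was 0.31 higher in the cKO library than the control mean, where the controls differed by 0.06, and the difference was not tested. The intervals of the controls overlapped, so the gap between them lay within counting error. Most reads of the denominator came from Fcgr3, which shares the stretch printed above with Fcgr2b.

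Fcgr2b, the inhibitory receptor, was higher in the cKO library than in both controls. It had 5555 reads and 304 CPM in the cKO library (95% interval 296 to 312), against 165 CPM in control 5 and 209 in control 6. The cKO value was 1.62 times the control mean of 187 ± 30.9 CPM (SD, n = 2), and on the log2 scale 1.60 times farther from control 6 than the controls were from each other. The log2 fold change of 0.70 (SE 0.36) did not pass the edgeR test (unadjusted p = 0.0881, adjusted p = 0.902). A predicted gene on the opposite strand, Gm38204, covers 2.68% of the exon bases of Fcgr2b, and the library kit did not mark strand.

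The make-up of the Fc gamma receptor reads differed accordingly. Fcgr2b held 18.0% of the 30871 reads of the 4 Fc gamma receptor genes in the cKO library (95% exact interval 17.6% to 18.4%), against 9.12% (8.81% to 9.44%) in control 5 and 12.2% (11.8% to 12.7%) in control 6. Fcgr3 held 74.0% in the cKO library, 84.2% in control 5 and 79.95% in control 6. Fcgr4 held 3.09% in the cKO library, 1.71% in control 5 and 1.91% in control 6. The share of Fcgr1 was near that of control 5, at 4.87% in the cKO library, 5.01% in control 5 and 5.90% in control 6.

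Set against each other, Fcgr3 had 4.12 reads for each Fcgr2b read in the cKO library (95% interval 3.996 to 4.24), against 9.23 (8.89 to 9.59) in control 5 and 6.53 (6.28 to 6.80) in control 6. The log2 ratio of this activating receptor to the inhibitory one was 0.92 lower in the cKO library than the control mean (-0.92), and the controls differed by 0.50. The intervals cover counting error only, the controls themselves lay outside each other's intervals, and the difference was not tested. The ratio is of reads, not of molecules, and both genes share the stretch printed above.

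**Figure D2:**
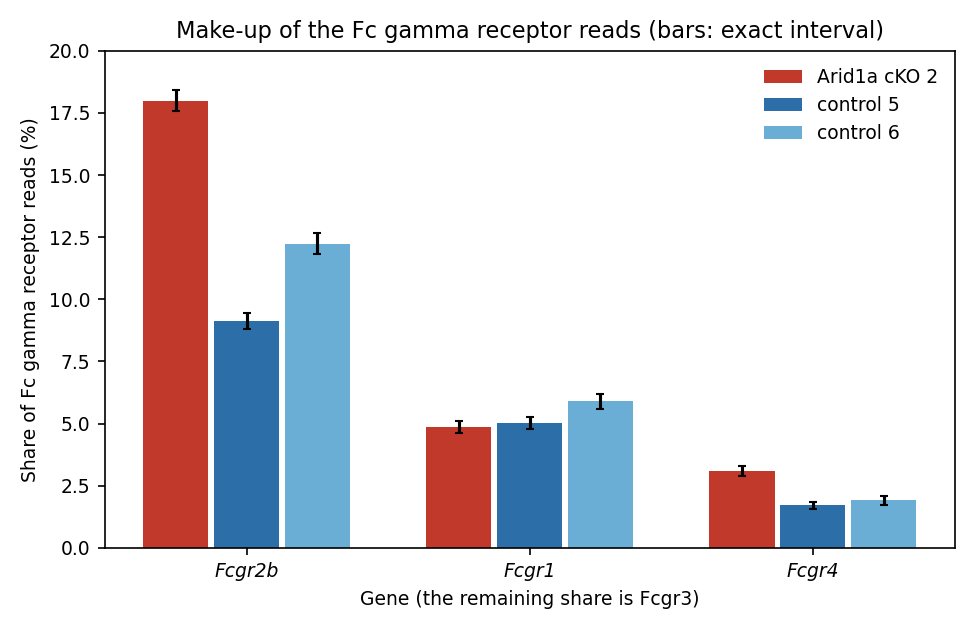
Share of the Fc gamma receptor reads (%) held by Fcgr2b, Fcgr1 and Fcgr4 in the Arid1a cKO library, control 5 and control 6, with exact binomial intervals as error bars; Fcgr3 holds the rest. Fcgr2b reaches 18.0% in the cKO library, against 9.12% in control 5 and 12.2% in control 6, while Fcgr1 stays between 4.87% and 5.90% in all 3.

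Fcgrt, the heavy chain of the neonatal Fc receptor, was the member with the largest difference. It had 7992 reads in the cKO library, against 16180 in control 5 and 14360 in control 6. Scaled, these were 437 CPM in the cKO library (95% interval 428 to 447), 904 in control 5 and 1064 in control 6. The cKO library was more than 2-fold below each control, as were 7.56% of all genes tested, a size limit chosen after the values were seen. On the log2 scale the cKO value was 4.44 times farther from control 5 than the controls were from each other.

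Against the control mean of 984 ± 113 CPM (SD, n = 2), the log2 fold change of Fcgrt was -1.17 (SE 0.35). It ranked 285 among all genes by edgeR p (unadjusted p = 0.0104) and did not pass after adjustment (adjusted p = 0.549). The DESeq2 Wald test, run as an alternative, gave the same log2 fold change of -1.17 and an adjusted p of 0.0362. That test called 1.31% of the genes with an adjusted p as lower in the cKO library (153 genes), and 1.84% in either direction. B2m, whose product beta-2-microglobulin pairs with the Fcgrt product, stood at 1449 CPM in the cKO library, 1188 in control 5 and 1240.0 in control 6 (log2 fold change 0.25, SE 0.31, edgeR adjusted p = 1.00).

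**Figure D3:**
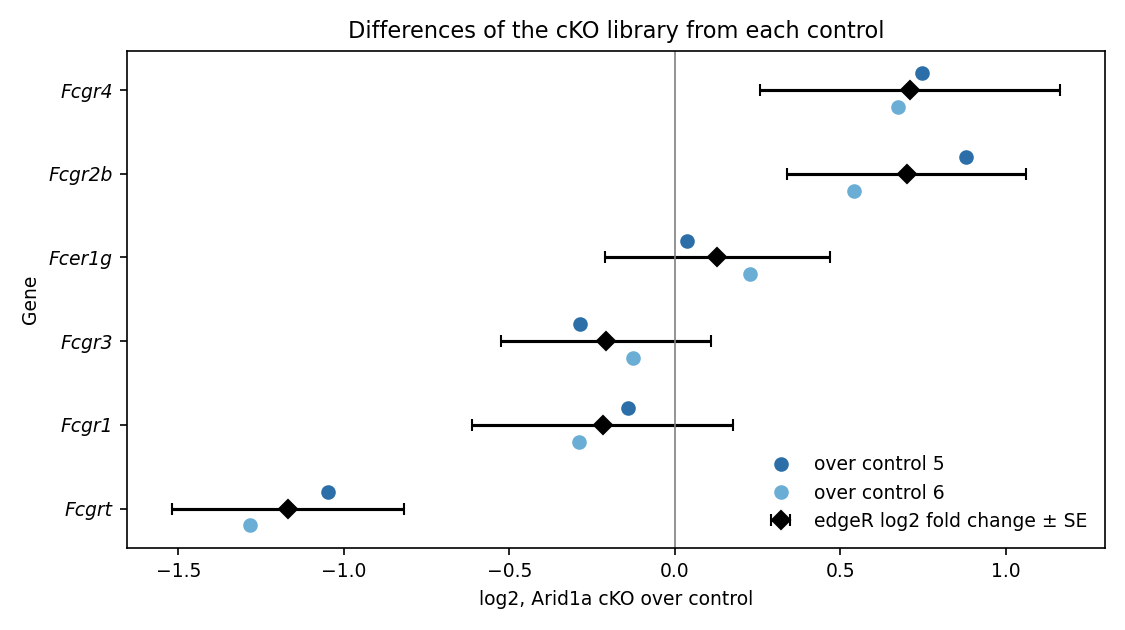
Log2 difference of the Arid1a cKO library from control 5 (dark points) and control 6 (light points) for each Fc receptor gene, with the edgeR log2 fold change and its standard error (diamonds and bars). The 2 points lie on the same side of 0 in all 6 genes, farthest from 0 in Fcgrt, at -1.05 over control 5 and -1.28 over control 6.

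The authors' deposited tables compare the cKO library with each control in turn. In the authors' deposited table for control 5 the ratio of cKO to control was 0.532 for Fcgrt, 2.02 for Fcgr2b and 1.85 for Fcgr4. For control 6 the authors' deposited table gave 0.444 for Fcgrt, 1.57 for Fcgr2b and 1.72 for Fcgr4. Ratios for Fcgr1, Fcgr3 and Fcer1g in the authors' deposited tables lay between 0.883 and 1.26. None of the 12 member comparisons was marked significant in the authors' deposited tables, which share the cKO library. The share of all genes so marked is not given here, so this count says nothing particular to the members. Some p-values in the authors' deposited tables were nonetheless small, listed as 0 for Fcgrt in both. For Fcgr2b the authors' deposited tables listed 3.05e-221 over control 5 and 1.75e-90 over control 6. Others in the authors' deposited tables were not small, at 0.948 for Fcgr1 over control 5 and 0.288 for Fcgr3 over control 6. Each of those compares a pair of libraries, not the genotypes.

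Per kilobase of exon, which makes levels comparable between genes, Fcgr3 was the highest member in every library, at 721 CPM per kb in the cKO library, 879 in control 5 and 787 in control 6. Fcer1g followed in the cKO library and control 5, at 567 CPM per kb in the cKO library, 554 in control 5 and 485 in control 6. Fcgrt stood at 208 CPM per kb in the cKO library, under Fcer1g, against 430.0 in control 5 and 506 in control 6, where the ranges of these genes overlapped.

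The other members were more than an order of magnitude lower than Fcgr3. Fcgr2b stood at 52.5 CPM per kb in the cKO library, 28.5 in control 5 and 36.1 in control 6. Fcgr4 stood at 41.5 CPM per kb in the cKO library, 24.7 in control 5 and 26.0 in control 6. Fcgr1 stood at 31.8 CPM per kb in the cKO library, 35.1 in control 5 and 38.9 in control 6. The cKO library thus had Fcgr2b above Fcgr4 above Fcgr1, and both controls had Fcgr1 above Fcgr2b above Fcgr4, with overlapping ranges of Fcgr1 and Fcgr2b. With the longest coding transcript as the gene's length, an alternative chosen after seeing the data, Fcgr2b stood above Fcgr1 in both controls too. The summed level of the 4 Fc gamma receptor genes was 847 CPM per kb in the cKO library, 967 in control 5 and 888 in control 6.

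The 250 bases upstream of the RefSeq starts (GRCm38.p6) are shown for Fcgr2b, Fcgr4 and Fcgrt, the members farthest from the controls. Capitals mark the motif GAGGAAG, a purine-rich box of the kind bound by the myeloid factor PU.1, searched on both strands. The Fcgr2b and Fcgr3 windows lie inside the spans the tables give for those genes. The Fcgr4 and Fcgrt windows run slightly into the spans of theirs. Fcgr2b is at chr1:170976072-170976321 on the minus strand, Fcgr4 at chr1:171018676-171018925 on the plus strand and Fcgrt at chr7:45103823-45104072 on the minus strand.
Fcgr2b: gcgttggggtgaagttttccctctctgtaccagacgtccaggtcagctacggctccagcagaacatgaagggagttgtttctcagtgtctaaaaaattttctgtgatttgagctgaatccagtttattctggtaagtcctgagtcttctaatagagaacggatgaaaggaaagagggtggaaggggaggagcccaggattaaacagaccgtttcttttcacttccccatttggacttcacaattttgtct
Fcgr4: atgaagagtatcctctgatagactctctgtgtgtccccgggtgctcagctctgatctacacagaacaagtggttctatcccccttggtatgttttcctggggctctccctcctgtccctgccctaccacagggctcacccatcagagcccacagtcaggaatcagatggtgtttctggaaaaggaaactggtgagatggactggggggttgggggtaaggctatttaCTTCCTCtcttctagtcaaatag
Fcgrt: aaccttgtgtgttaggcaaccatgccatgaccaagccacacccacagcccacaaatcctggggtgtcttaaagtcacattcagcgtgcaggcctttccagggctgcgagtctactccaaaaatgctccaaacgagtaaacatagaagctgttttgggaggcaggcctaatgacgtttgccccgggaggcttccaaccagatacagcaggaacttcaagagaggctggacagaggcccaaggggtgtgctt
The motif stood once in Fcgr4, with its first base 23 bases upstream of the start, and also in the windows of Fcgr1 and Fcgr3. These letters were not in the windows of Fcgr2b, Fcer1g or Fcgrt. The motif occurred in 10.6% of 32851 mouse promoter windows of this length. TTCNNNGAA, the palindrome that STAT factors bind and read the same on both strands, stood in Fcgr1 alone among the members and in 7.02% of all windows. Both motifs were chosen with the differences known, and a match of letters is a description of the window.

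The genes beside the members on chromosome 1 lay on both sides of the controls. Of 33 tested genes within 500 kb of the chromosome 1 members, edgeR called 0 and 2 had an unadjusted p under 0.05, and DESeq2 called 1, Pcp4l1, which had 0 reads in the cKO library. The cKO library was above both controls in 10 and below both in 15, beside 38.0% and 31.1% of all genes. Their median log2 fold change was -0.33, beside 0.05 over all genes tested. Over all genes, 6.00% had an unadjusted edgeR p under 0.05, and DESeq2 called 1.84% of those with an adjusted p. B4galt3, a galactosyltransferase gene, stood at 18.6 CPM in the cKO library, 46.8 in control 5 and 53.4 in control 6 (log2 fold change -1.43, SE 0.50, edgeR adjusted p = 0.696). Sdhc, a respiratory complex gene that lies between Fcgr3 and Fcer1g, stood at 73.1 CPM in the cKO library, 57.6 in control 5 and 63.4 in control 6.

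Around Fcgrt on chromosome 7, most neighbours lay on the other side of 0 from Fcgrt. Of 48 tested genes the cKO library was above both controls in 28 and below both in 6, beside 38.0% and 31.1% of all genes, and the median log2 fold change was 0.35. Again edgeR called 0 of them, 3 had an unadjusted p under 0.05, beside 6.00% of all genes, and DESeq2 called 1, beside 1.84%. That gene was Rcn3, for a calcium-binding protein of the secretory pathway, on the same strand and 0.769 kb from the end of Fcgrt. Rcn3 stood at 139 CPM in the cKO library, against 16.2 in control 5 and 20.01 in control 6. Its log2 fold change of 2.94 (SE 0.42) did not pass the edgeR test (adjusted p = 0.0810) and passed the DESeq2 test (adjusted p = 6.65e-06). Nosip, the next gene, stood at 137 CPM in the cKO library, 155 in control 5 and 139 in control 6. Around Fcgr1 on chromosome 3, edgeR and DESeq2 called 0 of 35 neighbours, 1 had an unadjusted p under 0.05, and the median log2 fold change was 0.05. Txnip, for a protein that binds thioredoxin, stood there at 128 CPM in the cKO library, 113 in control 5 and 263 in control 6.

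**Figure D4:**
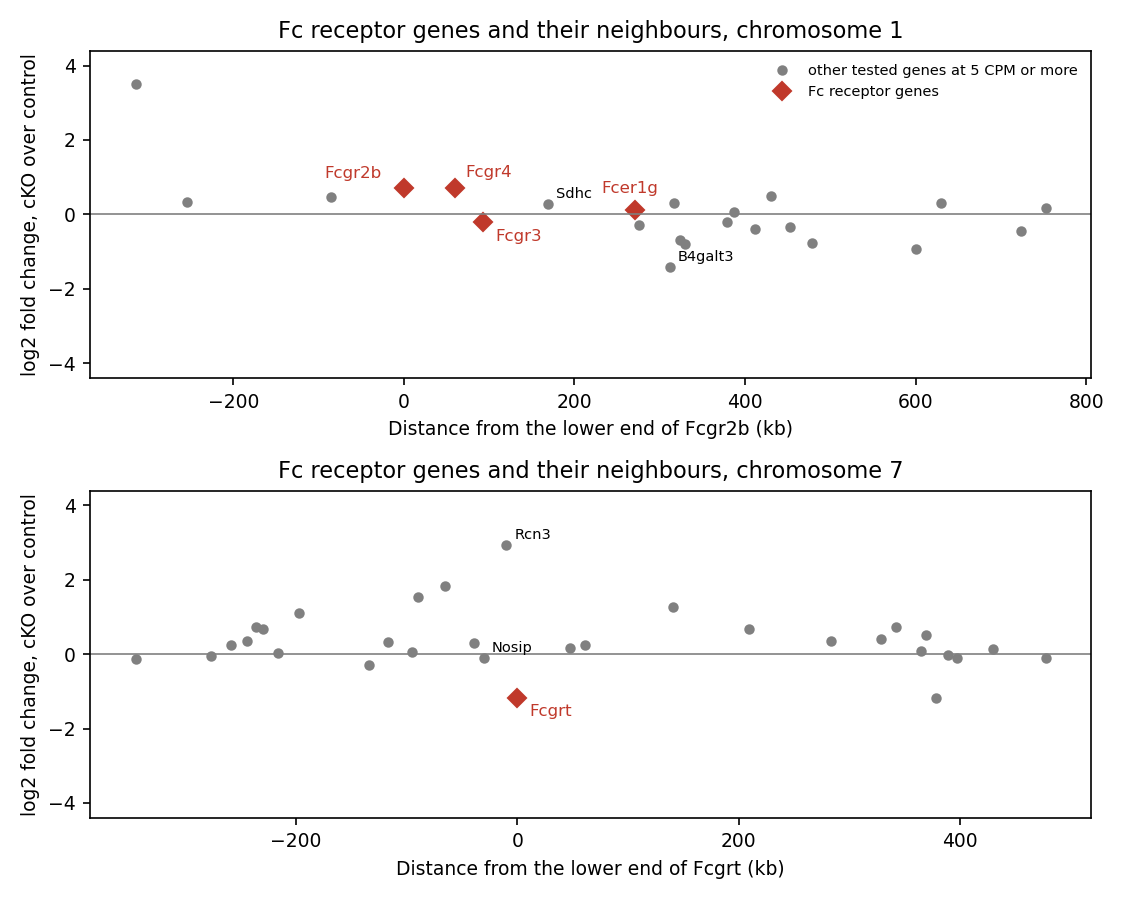
Log2 fold change, Arid1a cKO over control, of Fc receptor genes (diamonds) and other tested genes at a mean of 5 CPM or more within 500 kb (points), against distance in kb from the lower end of Fcgr2b on chromosome 1 and of Fcgrt on chromosome 7; genes with 0 reads in a group are left out. Fcgrt (-1.17) lies beside Rcn3 (2.94), and Fcgr2b (0.70) and Fcgr4 (0.71) lie beside Fcgr3 (-0.21).

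The genes that work with the Fc receptors were followed in 6 lists of 105 genes other than the members, of which 91 were tested. None passed the edgeR test. At an unadjusted p under 0.05 there were 10, or 10.99% beside 6.00% of all genes, of which 6 were higher and 4 lower in the cKO library. DESeq2 called 2, Dok3 as higher and Blnk as lower, beside 1.84% of all genes with an adjusted p. In 44 the cKO library was the highest and in 25 the lowest, beside 38.0% and 31.1% of all genes, and the median log2 fold change was 0.18.

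Of other Fc-binding and Fc receptor-like genes, 6 of 15 were tested, and 1, the cytosolic antibody receptor gene Trim21, was higher at an unadjusted p under 0.05 with 125 reads in the cKO library, 5 in control 5 and 9 in control 6. Fcrls, an Fc receptor-like scavenger receptor gene that is also on the microglia list, was the most highly counted gene of this list, at 3238 CPM in the cKO library, 3439 in control 5 and 4116 in control 6. Fcrl1, known from B cells, stood at 21.6 CPM in the cKO library, 38.3 in control 5 and 41.7 in control 6 (edgeR adjusted p = 0.936). The median of this list was a log2 fold change of 0.02, the same with Fcer1a, at 0 reads in the cKO library, put at its bound of 3 reads.

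Of a list of ITAM adaptors, related adaptors and receptors that pair with the gamma chain, 8 of 10 were tested. In edgeR 0 reached an unadjusted p under 0.05, with 0 called by DESeq2. Oscar, Clec4d and Tarm1 had 27 reads or fewer in every library. In 5 of them the cKO library was the highest and in 2 the lowest, and the median log2 fold change was 0.80. Tyrobp, the adaptor used by Trem2, stood at 66.1 CPM in the cKO library, 44.6 in control 5 and 30.2 in control 6. Clec4n, for the fungal receptor dectin-2, stood at 20.4 CPM in the cKO library, 11.6 in control 5 and 12.2 in control 6. Hcst, a related adaptor gene, stood at 6.73 CPM in the cKO library, 2.51 in control 5 and 4.74 in control 6.

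Kinases and adaptors downstream of ITAM were split, with the cKO library highest in 9 and lowest in 10 of 26 and a median of -0.02 (log2 fold change), which was above 0 with library totals or without control 6. In this list 3 genes were lower and 0 higher at an unadjusted p under 0.05. Blnk, an adaptor that links Syk to phospholipase C gamma, stood at 82.5 CPM in the cKO library, 239 in control 5 and 260 in control 6. Its log2 fold change was -1.59 (SE 0.39, edgeR adjusted p = 0.361, DESeq2 adjusted p = 0.00479). Fyn, a Src-family kinase, stood at 8.87 CPM in the cKO library, 59.7 in control 5 and 20.5 in control 6, so that the controls differed more than 2-fold. The adaptor Lat2 stood at 22.1 CPM in the cKO library, 55.6 in control 5 and 43.1 in control 6. The exchange factor Vav2 stood at 46.1 CPM in the cKO library, 76.1 in control 5 and 107 in control 6 (unadjusted p = 0.0564). Syk, named outside the rule as the kinase that ITAMs recruit, stood at 161 CPM in the cKO library, 97.9 in control 5 and 141 in control 6.

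Among inhibitory regulators the cKO library was the highest in 8 and the lowest in 1 of 15, the median was 0.27 (log2 fold change), and 2 genes were higher at an unadjusted p under 0.05. The median was 0.019 without control 5 and 0.50 without control 6. Dok3, an adaptor that restrains ITAM signalling, stood at 196 CPM in the cKO library, against 34.4 in control 5 and 50.5 in control 6. Its log2 fold change was 2.2 (SE 0.41, edgeR adjusted p = 0.164, DESeq2 adjusted p = 0.000604). Inppl1, a lipid phosphatase, stood at 51.8 CPM in the cKO library, 6.09 in control 5 and 23.6 in control 6. Pirb, an ITIM-bearing receptor, stood at 52.1 CPM in the cKO library, 21.8 in control 5 and 29.8 in control 6. Ptprc, the CD45 phosphatase that acts on Src-family kinases, was the 1 gene of this list below both controls. It stood at 556 CPM in the cKO library, 898 in control 5 and 787 in control 6. Inpp5d, named outside the rule as the phosphatase that Fcgr2b recruits, stood at 941 CPM in the cKO library, 578 in control 5 and 938 in control 6.

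Of the genes of Fc receptor-driven uptake, 25 of 27 were tested, with the cKO library highest in 12 and lowest in 7, a median log2 fold change of 0.27 (0.16 without control 6), and 3 higher at an unadjusted p under 0.05. Gsn, for the actin-severing gelsolin, stood at 147 CPM in the cKO library, 44.3 in control 5 and 56.1 in control 6 (edgeR adjusted p = 0.382, DESeq2 adjusted p = 0.0564). Ncf1, a subunit of the phagocyte NADPH oxidase, stood at 607 CPM in the cKO library, 187 in control 5 and 319 in control 6 (edgeR adjusted p = 0.601). Both were well above each control without passing either test. The actin regulator Wipf1 stood at 95.4 CPM in the cKO library, 53.5 in control 5 and 45.4 in control 6, and Vasp at 128 in the cKO library, 44.2 in control 5 and 79.4 in control 6.

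Of factors and cytokine receptors known to act on Fc receptor genes, 11 of 12 were tested, with the cKO library highest in 7 and lowest in 2, and a median log2 fold change of 0.32. Tgfbr1, a receptor for TGF-beta, was lower at an unadjusted p under 0.05, with 500.2 CPM in the cKO library, 825 in control 5 and 971 in control 6 (edgeR adjusted p = 0.817). Il4ra stood at 188 CPM in the cKO library, 55.6 in control 5 and 142 in control 6. Il10ra stood at 128 CPM in the cKO library, 39.3 in control 5 and 100.5 in control 6. For both, the controls differed more from each other than the cKO library did from control 6. Irf8, a myeloid transcription factor, stood at 284 CPM in the cKO library, 330 in control 5 and 526 in control 6. Spi1, the gene of PU.1, stood at 144 CPM in the cKO library, 122 in control 5 and 55.6 in control 6, and is named outside the rule because its motif was searched.

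**Figure D5:**
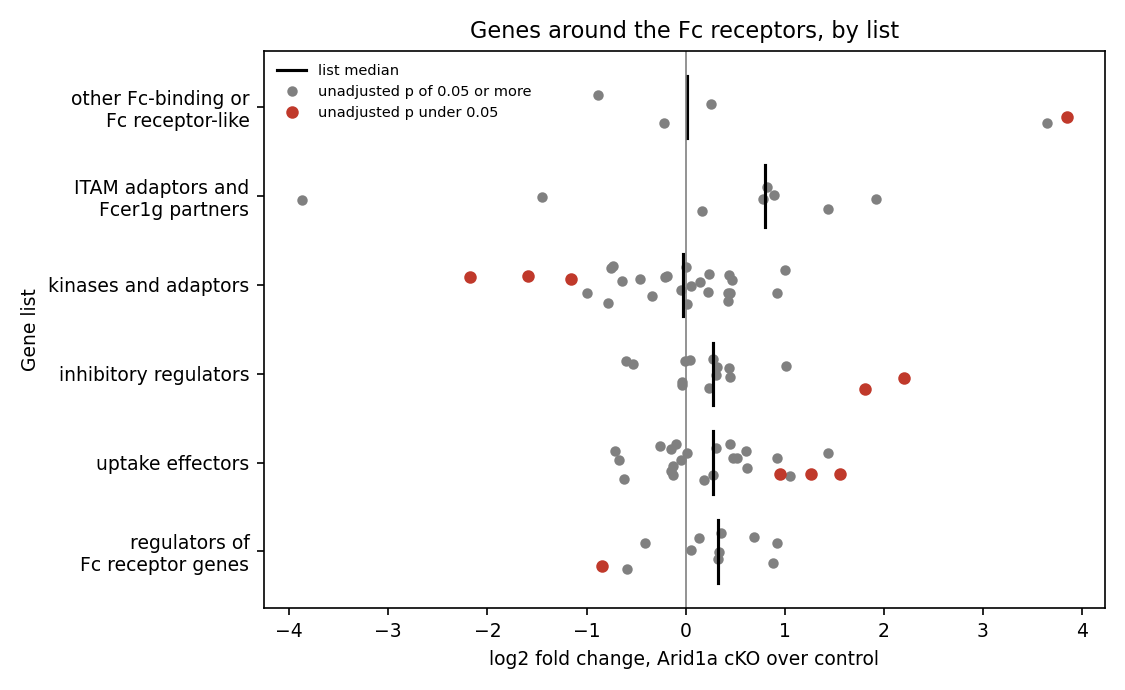
EdgeR log2 fold change, Arid1a cKO over control, of each tested gene in the 6 lists around the Fc receptors (points, red at an unadjusted p under 0.05), with the list median as a black line; Fcer1a, with 0 reads in the cKO library, is not drawn. The medians lie between -0.02 and 0.80, and no gene passed the test after adjustment.

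Other cells that carry Fc receptors could be present in the sort, and their markers are given for that reason. Monocyte and neutrophil markers summed to 203 CPM in the cKO library, 162 in control 5 and 194 in control 6, with 6 of 8 tested. Border-associated macrophage markers summed to 309 CPM in the cKO library, 321 in control 5 and 276 in control 6. Of these markers, Mpo, Lyve1 and Cd163 had 0 reads in control 5. Both sums differed between the controls by more than the cKO library differed from the nearer control. Within the first sum, markers went both ways. Plac8 stood at 68.9 CPM in the cKO library, 14.7 in control 5 and 31.7 in control 6. Ccr2 stood at 93.0 in the cKO library, 120 in control 5 and 138 in control 6. In that list 1 marker was higher at an unadjusted edgeR p under 0.05, beside 6.00% of all genes. Lyve1 stood at 6.68 CPM in the cKO library and 0.963 in control 6.

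Mast cell and eosinophil markers summed to 147 CPM in the cKO library, 69.4 in control 5 and 89.2 in control 6, and so stood apart in the same direction as Fcgr2b and Fcgr4. That order rested on 1 of the 7 markers, since Siglecf stood at 119 CPM in the cKO library, 21.7 in control 5 and 57.9 in control 6. Without it, in a sum added after seeing the data, the other 6 came to 27.8 CPM in the cKO library, 47.7 in control 5 and 31.3 in control 6. Of the 4 markers tested, Siglecf included, the cKO library was the highest in 3 and the lowest in 1. Cpa3 stood at 23.1 CPM in the cKO library, 0 in control 5 and 13.7 in control 6. Kit stood at 4.49 CPM in the cKO library, 0 in control 5 and 2.52 in control 6. Prg2 went the other way, at 0.219 CPM in the cKO library, 44.4 in control 5 and 15.0 in control 6. The part of these cells in the Fcgr2b and Fcgr4 values was not tested. B cell markers summed to 23.0 CPM in the cKO library, 157 in control 5 and 148 in control 6, nearly all of it Cd79b, while Ms4a1 had 9 reads in the cKO library and 0 in both controls, and Cd79a had 12 reads in the cKO library, 0 in control 5 and 4 in control 6. Erythroid markers summed to 35.6 CPM in the cKO library, 33.3 in control 5 and 40.8 in control 6. Endothelial markers summed to 25.8 CPM in the cKO library, 36.0 in control 5 and 36.2 in control 6, and neuron and progenitor markers to 180.3 in the cKO library, 195 in control 5 and 223 in control 6. The 5 NK or T cell markers looked up were Ncr1, Klrb1c, Gzma, Cd3e and Cd3g. None of them had a row with counts for any library used. The lower microglia marker level stood beside the lower Fcgrt level, and its part in that value was not tested.

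Likeness of pattern was measured as the distance between the log2 CPM of 2 genes over the 3 libraries, each centred on its own mean, among 8798 genes at a mean of 5 CPM or more that were neither members, predicted genes, pseudogenes nor sex-linked. Nearest to Fcgrt were Fcho2, at a distance of 0.0157, and Auh, at 0.0489, and 133 genes lay within 0.25. Within the same distance lay 1122 genes for Fcgr1 (nearest Cript and Mrps10), 1245 for Fcgr3 (Aar2 and Rab8b) and 1242 for Fcer1g (Amn1 and Basp1). Fcgr4 had 494 (Sdc3 and Pgd) and Fcgr2b had 492 (Trip10 and Mrpl44). Of the member pairs, Fcgr4 and Fcgr2b lay 0.188 apart and Fcgr1 and Fcgr3 lay 0.219 apart. With 3 libraries such distances describe only which library is high and by how much.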

How the data were processed

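RNA sequencing of 3 libraries was used. The submitters' processing notes name TopHat2 2.0.12, Bowtie2 2.2.3 and HTSeq 0.6.0, with mm9 as the build, but the deposited gene positions are on GRCm38, identical to GENCODE M21 for 89.9% of gene IDs and for all 6 members. The authors deposited 2 tables, each with the raw read counts of the cKO library and of 1 control. Per the file headers each also holds a normalised column (CPM by its values), the fold (a ratio), that fold on a log2 scale and p-values from a test not given in the sources used here. All 21 gene symbols stored as dates were restored from gene IDs.

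The counts of the 16655 genes in both tables were fitted with edgeR 4.0.16 in R 4.3.3 (filterByExpr, TMM factors, quasi-likelihood F test, two-sided, Benjamini-Hochberg over 15236 genes, threshold 0.05). The single residual degree of freedom came from the controls (1), and the cKO library was assumed to vary like them. A prior count of 2 went into log2 ratios between libraries. Intervals are exact (Poisson, or Clopper-Pearson for shares) at the 95% level and cover counting error only, since reads are not independent molecules. DESeq2 1.42.0, other scalings and filters and leaving out each control were alternatives. Scripts were tested on simulated data with known changes and far less spread between libraries than these data. That run checked that fold changes were recovered, not how the edgeR test behaves at the spread seen here. Genes averaging 5 CPM or more are named from each list, up to 4 by smallest p, or, where none reached an unadjusted p of 0.05, the 3 with the highest level; the text also names the 2 genes most like each member and, of the 2 nearest tested neighbours on each side of a member, those averaging 5 CPM or more, except 1 that is not reported here. Members and lists were chosen with earlier results of these data known. Promoter sequences are from RefSeq, in which all 6 members matched.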

Additional observations from a re-analysis of the deposited data

How the results depend on the processing

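All 6 Fc receptor genes kept the direction of their difference under every alternative run, in 60 of 60 values. The alternatives were other scalings and filters, genes in either table, a robust prior, DESeq2, and leaving out each control. Leaving out a control could not change a direction, since 0 members lay between the controls. The robust prior left the log2 fold changes of the members unchanged, and all alternatives drew on the same 3 libraries. Fcgrt ranged from -1.28 to -1.05 on the log2 scale and passed the test under the DESeq2 Wald test alone (log2 fold change -1.17, adjusted p = 0.0362), so that DESeq2 called 1 of the 6 members. Fcgr2b ranged from 0.54 to 0.88, Fcgr4 from 0.67 to 0.83, Fcer1g from 0.04 to 0.25, Fcgr1 from -0.29 to -0.09 and Fcgr3 from -0.29 to -0.08.

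The count of all genes called by edgeR (6) was 0 with upper-quartile factors, with DESeq2 size factors and without a low-count filter (818, 895 and 948 at an unadjusted p under 0.05), 44 at 5 CPM or more in 2 libraries and 10 with genes in either table. The DESeq2 Wald test called 215. Library totals with no scaling factors, added after seeing the data, moved the median log2 fold change of all genes up by 0.12. The median of the other Fc-binding list was 0.24 with no low-count filter, 0.14 with library totals, -0.21 both at 5 CPM or more in 2 libraries and with genes in either table, and between -0.061 without control 5 and 0.10 without control 6. That of the kinases and adaptors lay between -0.075 without control 5 and 0.087 without control 6, and was 0.099 with library totals. The cause was not tested.

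No paired analysis was possible because the groups share no replicate number. With 1 cKO library, its own spread is unknown, and leaving out a control gave values with no test.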
